A study of Mus musculus with 24 samples.

Results

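Of 147816 regions of open chromatin found in cultured mouse macrophages, 4675 carried a peak in every library kept, and 1003 of those lay over 1 kb from any annotated transcription start. These 1003 distal regions are described here. They were chosen by detection: overlapping peaks within each authors' list were collapsed to the one with the best score, lists under 5000 peaks were left out, and the remaining 22 lists were merged at 1 bp of overlap. The start sites were those of all transcripts in GENCODE M21 on mm10. Because detection in every library chose the regions, their high standing in each list is a description and is not tested.

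The assay was ATAC-seq, in which the Tn5 transposase cuts and tags accessible DNA, on 50000 cells per reaction. Bone marrow of 28-day-old male mice of the BTBR T+ Itpr3tf/J and C57BL6/J strains was grown for 7 days into macrophages. There were 4 biological replicates per strain, each split over 3 treatments. These were media, 24 h of lipopolysaccharide (LPS, 100 ng/ml; LPSx1), or a first 4 h of LPS at that dose, a wash and 20 h of rest before the same 24 h (LPSx2). A replicate number is shared by the 3 treatments and is taken here as 1 animal, animals 1, 4, 6 and 7 being C57BL6/J and 2, 3, 5 and 8 BTBR. No group carries an engineered allele, and each of the 4 sequencing lanes held 1 animal of each strain. The media and LPSx2 lists of C57BL6/J animal 6 held 299 and 1877 peaks and were left out, so that the libraries used were 7 in media, 8 with LPSx1 and 7 with LPSx2.

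A distal open region is a stretch of DNA away from a gene's start where nucleosomes are displaced, most often an enhancer, an insulator or an unannotated start. In macrophages the lineage factor PU.1 binds many such sites together with AP-1, C/EBP and RUNX factors, and LPS, sensed through Tlr4, activates NF-kB, AP-1 and interferon regulatory factors that act on them. CTCF marks insulators and loop anchors, which are often open in many cell types.

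Windows the width of 1 peak around the centres of 6 regions show what these sequences look like, chosen as the highest-ranked holder of each common motif among the regions named for their rank or change, or among all 1003 where none of those held it (RUNX), and the regions that moved most with LPSx1. They are the plus strand of mm10, read from RefSeq's GRCm38 sequence. That sequence is of the C57BL/6J strain, so BTBR may differ at some bases. Each line is named by the nearest protein-coding start, and capitals mark matches on either strand to AP-1 (TGANTCA), PU.1 (GAGGAAGT), C/EBP (TTGCNNAA) or RUNX (TGTGGTTT).
Zfp869, chr8:69716978-69717178: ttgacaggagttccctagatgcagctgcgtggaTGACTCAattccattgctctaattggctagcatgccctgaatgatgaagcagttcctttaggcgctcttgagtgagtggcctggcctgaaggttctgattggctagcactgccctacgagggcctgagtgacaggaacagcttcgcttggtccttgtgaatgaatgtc
Kif2a, chr13:107485725-107485925: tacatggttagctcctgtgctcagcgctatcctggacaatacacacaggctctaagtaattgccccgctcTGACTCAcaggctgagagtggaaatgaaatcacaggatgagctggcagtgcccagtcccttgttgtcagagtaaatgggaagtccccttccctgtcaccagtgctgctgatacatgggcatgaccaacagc
Zfp462, chr4:54527775-54527975: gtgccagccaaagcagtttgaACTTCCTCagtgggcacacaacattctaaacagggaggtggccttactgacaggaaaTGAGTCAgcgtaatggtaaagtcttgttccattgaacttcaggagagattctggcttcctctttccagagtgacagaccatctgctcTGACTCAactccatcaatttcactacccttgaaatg
Ank2, chr3:127355316-127355516: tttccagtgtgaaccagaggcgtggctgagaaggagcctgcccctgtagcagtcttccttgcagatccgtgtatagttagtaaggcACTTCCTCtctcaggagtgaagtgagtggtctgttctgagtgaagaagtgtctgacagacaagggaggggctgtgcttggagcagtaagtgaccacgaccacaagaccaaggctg
Adgrl2, chr3:148248756-148248956: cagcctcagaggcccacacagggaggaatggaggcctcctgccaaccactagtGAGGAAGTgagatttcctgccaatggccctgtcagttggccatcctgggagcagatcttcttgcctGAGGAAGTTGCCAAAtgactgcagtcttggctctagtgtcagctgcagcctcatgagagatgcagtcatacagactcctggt
Cxcl12, chr6:117431609-117431809: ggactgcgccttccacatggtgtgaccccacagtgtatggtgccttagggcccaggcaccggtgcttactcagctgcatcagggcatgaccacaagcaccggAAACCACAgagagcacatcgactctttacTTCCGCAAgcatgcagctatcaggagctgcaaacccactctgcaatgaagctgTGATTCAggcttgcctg
The Zfp869 region was among the 6 with the highest mean rank and the Kif2a region rose most with LPSx1. The Zfp462 region, with 2 AP-1 matches and 1 PU.1 match, is among the 2 whose response differed between strains, the Ank2 region fell most with LPSx1, and the Adgrl2 region was higher in BTBR. The Zfp462 and Adgrl2 regions lie 417173 and 574123 bp from the starts that name them. In the Adgrl2 region 1 of the 2 PU.1 matches shares a base with the C/EBP match. The Cxcl12 region, 263132 bp from that chemokine gene's start, was the highest-ranked with a RUNX match and also holds AP-1 and C/EBP matches.

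Kept lists held 11349 to 127242 collapsed peaks, and the files do not give the read depth. In 7 lists (every treatment of animal 1, and media and LPSx2 for animals 3 and 4) the deposited peaks were mostly overlapping duplicates. Without these lists, animal 7 alone supplies the C57BL6/J media and LPSx2 libraries. Calls lost or gained without them therefore cannot be assigned to the duplicates. Macrophage markers had a peak within 1 kb of a start in 15 to 22 of the 22 libraries for each of the 10 genes tested. Of the markers of B cells, T cells, dendritic cells, erythroid cells, mast cells and basophils, and stromal cells, the median gene had a peak in at most 1.5 libraries, although single genes reached 16 (dendritic cells) and 12 (T cells). The 8 neutrophil markers had a median of 2.5 libraries and a range of 0 to 21.

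Detection in every library was rare away from starts. Distal regions made up 80.8% of the regions seen in 1 library and 21.5% of those seen in all 22 (the plot of regions by number of libraries). Another 786 distal regions were missed by 1 library only, and the media library of C57BL6/J animal 1, which has the shortest kept list, was the one missing for 236 of them (30%). At the distance limit the nearest region kept lay 1008 bp from a start, next to Junb, with a mean percentile rank of 75.3. The farthest left out lay 990 bp away, near Nckap1, with a mean rank of 64.1.

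**Figure D1:**
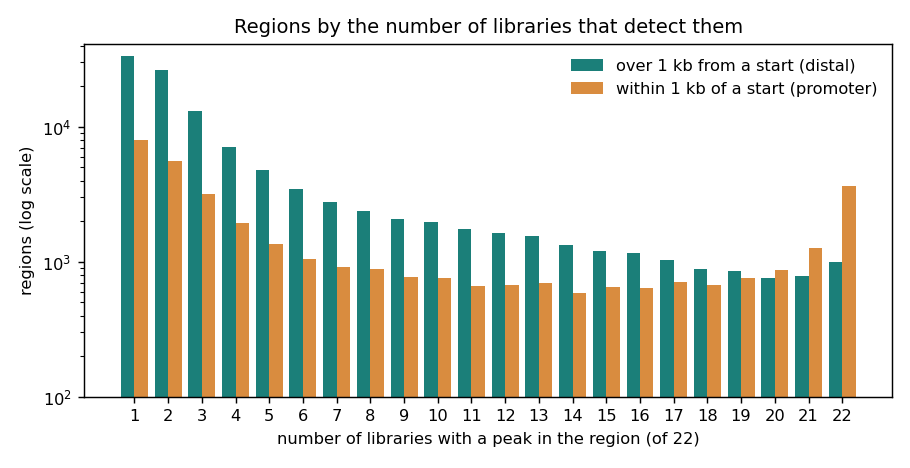
Number of regions (log axis) by the number of the 22 kept libraries with a peak in them, for regions over 1 kb from a start (distal) and within 1 kb (promoter). The last pair of bars holds the 1003 distal and 3672 promoter regions found in every library; promoter regions outnumber distal ones from 20 libraries on.

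By the annotation at their centres, 508 of the 1003 regions (50.6%, exact 95% interval 47.5 to 53.8) were in introns and 442 (44.1%, 41.0 to 47.2) between genes. A further 13 were in coding exons and 40 in other exons or untranslated regions. Distal regions seen in 11 to 21 libraries, of which there were 12969, had 55.9% in introns. The median distance to a start was 9486 bp (quartiles 4110 and 22402), against 9446 bp in those regions. A RefSeq transcript started within 1 kb of 73 of the 1003 (7.28%), against 4.70% of the less often detected ones.

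The windows were richer in G and C than those of the less often detected distal regions and poorer than those of promoters. Median GC content was 51.2%, against 48.3% and 65.2%. CpG-rich windows, with at least 50% GC and a CpG ratio of at least 0.6 to that expected, made up 9.97% (8.19 to 12.0) of the 1003, against 3.44% (3.13 to 3.77) and 83.1%. In the 786 distal regions missed by 1 library, median GC content was 50.2%. CpG-rich windows made up 6.74% (5.09 to 8.73) of those, an interval that overlaps that of the 1003. Every 50-base stretch was found once in the genome for 973 of the 1003 windows (97%), and 2 windows were mostly repeated sequence.

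AP-1, the Fos and Jun dimer family that relays LPS and stress signals, had the most common motif. It was in 345 windows (34.4%, 31.5 to 37.4), against 31.2% (30.4 to 32.0) of distal regions in 11 to 21 libraries and 4.30% of promoters in every library. PU.1, the ETS factor that specifies macrophages, matched 149 windows (14.9%, against 14.1% and 3.43%). C/EBP, another myeloid factor family, matched 147 (14.7%, against 17.8% and 4.85%). RUNX matched 47 (4.69%, against 4.33% and 0.517%). The CTCF core was in 11 windows (1.1%, 0.549 to 1.95), against 1.84% (1.62 to 2.09) of the less often detected regions. Promoters had the CTCF core in 0.899%. In the 97564 distal regions found in 1 to 10 libraries, the larger group, AP-1 was in 19.7%, PU.1 in 8.36%, C/EBP in 14.3%, RUNX in 3.14% and CTCF in 3.63%. In the 786 missed by 1 library AP-1 was in 34.6%, PU.1 in 15.5% and CTCF in 1.65%.

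Some motifs common at promoters were in few of the 1003, in a larger share than in distal regions of 11 to 21 libraries as a whole. NFY (AGCCAATC) matched 2.79% (1.86 to 4.01) against 0.779% (0.635 to 0.945), SP/KLF (GGGGCGGGG) 2.39% (1.54 to 3.54) against 0.948% (0.789 to 1.13), and NRF1 (GCGCANGCG) 1.40% (0.765 to 2.33) against 0.547% (0.428 to 0.690). In the 786 regions missed by 1 library the shares were 1.02% (0.440 to 2.00), 1.4% (0.701 to 2.49) and 1.27% (0.612 to 2.33), with intervals that overlap those of the 1003. YY1 (AAGATGGC), also more common at promoters (2.45%), went the other way. It matched 0.199% (0.0242 to 0.718) of the 1003 against 0.948% (0.789 to 1.13) in 11 to 21 libraries. The NF-kB motif was in 42 windows (4.19%, against 4.13%) and the interferon-regulatory-factor motif GAAANNGAA in 66 (6.58%, against 8.74%). None of PU.1, CTCF, AP-1, C/EBP and RUNX was found in 435 windows (43.4%), and 120 (12.0%) held at least 2 of the 5, most often AP-1 with C/EBP (41) or with PU.1 (40). A match is a run of letters, not a bound site.

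The matches clustered at the region centres (the plot of motif position). AP-1 matches had their middle within 40 bp of the centre at a mean of 5.81 per 100 regions and 20 bp bin, against 0.663 at 300 to 500 bp. PU.1 gave 2.04 against 0.150, RUNX 0.748 against 0.160, and C/EBP 1.67 against 0.887. In distal regions of 11 to 21 libraries the AP-1 and PU.1 values near the centre were 5.85 and 2.39. CTCF matches near the centre were at 0.0249 per 100 regions and bin here and at 0.355 in those regions. The CTCF core was in only 11 of the 1003 windows, so the first rate rests on very few matches. A looser core was in 5.28% of windows against 5.89%.

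**Figure D2:**
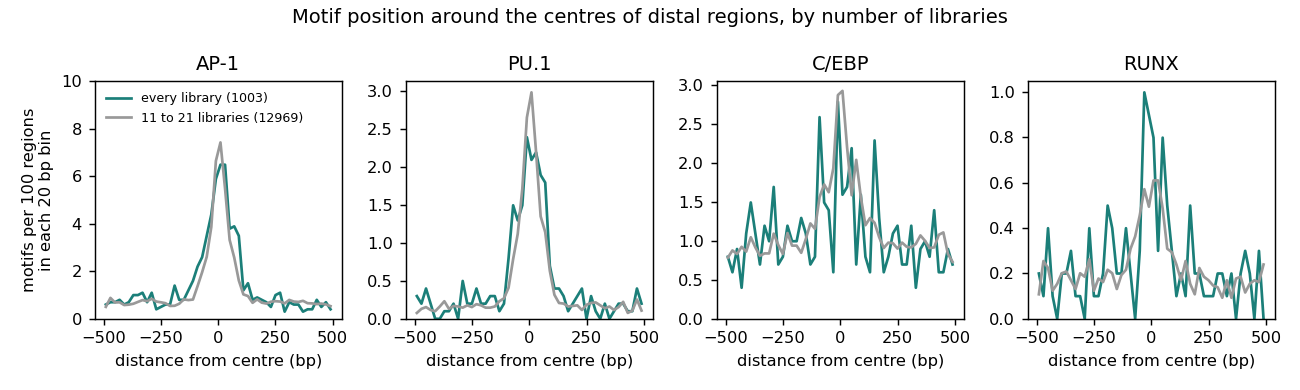
Motif matches per 100 regions in each 20 bp bin, by distance of the motif's middle from the region centre, for the 1003 distal regions in every library and the 12969 in 11 to 21 libraries (the vertical scale differs between panels). AP-1 and PU.1 peak at the centre in both sets, reaching 5.81 and 2.04 per bin on average within 40 bp in the 1003.

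By nearest protein-coding start within 100 kb, 875 of the regions were assigned to 782 genes, 3.57% of the 21911 annotated. Only 69 genes had at least 2, and the median distance from a region to the nearest other of the 1003 was 600937 bp. Sfi1, encoding a centrin-binding protein of the centrosome, had 15, all on chromosome 11 between 3127053 and 3184189, with a median width of 1173 bp against 324 bp for all 1003. Man1a, a Golgi mannosidase, and Pde4d, a phosphodiesterase that degrades cyclic AMP, had 4 each. Alox5ap, which enables leukotriene synthesis, App, the amyloid precursor gene, Cd93, Chd7, Fam49a, Plcb4 and Tmem189 had 3 each.

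The Sfi1 stretch varied by library far more than by treatment. The median percentile rank of its 15 regions was 0.406 to 4.95 in the 3 libraries of BTBR animal 2 and 95.8 to 98.9 in those of C57BL6/J animals 1 and 4. The other 13 libraries lay between 26 and 93.8. None of the 15 passed the test for strain, with differences of -36.7 to -19.1 and a smallest adjusted p of 0.0918, or for either LPS schedule.

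Of the gene lists, 4 of 14 AP-1 family genes had a region assigned to them (Jun, Junb, Batf and Atf3), 2 of 14 NF-kB genes (Bcl3 and Tnip3) and 2 of 24 cytokine and mediator genes (Tnf and Ccl2). A region was also assigned to 1 of 24 macrophage identity genes (Nr1h3, the oxysterol receptor LXR alpha) and 1 of 11 CTCF and cohesin genes (Yy1). None of 20 LPS-sensing genes and none of 23 interferon-stimulated genes had one.

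To compare libraries, each region's score was turned into its percentile rank among the 4675 regions found in every library, with 0 lowest and 100 highest. Mean ranks of the 1003 had quartiles of 30.6, 42.2 and 56.3, and their standard deviation over the 22 libraries had a median of 20.5 points, against 18 for promoter regions. Between libraries, ranks of the 1003 correlated with a Spearman rho of 0.127 to 0.833 (median 0.400 over 231 pairs), as a description across regions, which are not independent.

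Of the 6 regions with the highest mean rank, 4 shared a stretch of 25 bases with the mitochondrial genome, as did 6 of the 1003 in all. The first, 1154916 bp from the start of Galc on chromosome 12 (97061498 to 97061760), ranked from 99.9 to 100 in all 22 libraries. The next, in an intron of a pseudogene near Gm5426, ranked from 99.8 to 99.9, the intergenic region near Abcb11 from 98.1 to 99.8, and a Tbx20 intron from 71.7 to 99.8. The other two, without such a stretch, were in an intron of Pard3, a cell polarity gene (mean rank 94.6), and the Zfp869 region printed above (94.1). The part of reads from mitochondrial DNA in these scores was not tested.

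With LPS, more of these regions moved up in rank than down. With LPSx1, 277 of the 1003 (27.6%) differed from media at an adjusted p under 0.05, 220 higher and 57 lower, where 18.6% of all 4675 regions were called (10.3% higher and 8.32% lower). With LPSx2 the numbers were 258 (25.7%), 217 and 41, against 17.2% (9.69% and 7.55%). Median differences were 6.89 and 8.54 points in the 1003, and -0.328 and -0.615 over all regions. Both comparisons use the same media libraries and are not independent of each other. Of the members, 96 were called and higher in all 7 animals with both libraries with LPSx1, and 35 called and lower in all. With LPSx2 these were 81 and 23. Such counts were not made over all 4675 regions, so whether they are particular to the 1003 was not tested. Without the lane term 136 were called with LPSx1 and 151 with LPSx2, where 373 and 376 of all 4675 regions were called. Without the lists that held duplicates fewer were called with each schedule, among the 1003 and among all 4675. Animal 7 alone then supplied the C57BL6/J media and LPSx2 libraries. Without animal 5 the LPSx1 count was 180, against 443 of all 4675. In such bulk libraries fewer cells of a kind and less accessible DNA per cell cannot be told apart. The call closest to the limit was near Pgs1 (adjusted p = 0.0486) and the closest miss near Cdh26 (0.0513).

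The direction of these calls depended on what the regions were ranked against. Of the 4675 regions in the ranking above, 3672 were promoter regions, with median differences of -1.84 (LPSx1) and -2.37 points (LPSx2). A ranking of the 1003 alone gives the set the same mean rank in every library. Rises and falls then offset each other by construction, so a near-even split there is not a result about the regions. Ranked among the 1003 alone, with p-values still adjusted over all 4675, LPSx1 gave 140 higher and 136 lower, where 17.4% of all regions were called (9.39% higher and 7.98% lower). LPSx2 gave 129 and 117, against 15.6% (8.83% and 6.80%). Of the 220 called higher with LPSx1, 140 were called higher on this scale too and 80 were not called, while all 57 called lower were also called lower. For LPSx2, 129 of 217 and 41 of 41 were. No region was called in opposite directions on the 2 scales.

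The rank of the whole set moved from animal to animal (the plot of median ranks). The median rank of the 1003 went from 41.4 in media to 57.9 with LPSx1 in C57BL6/J animal 1, from 34.7 to 51.7 in animal 4 and from 20.5 to 44.2 in animal 7. In BTBR it went from 60.9 to 47.4 in animal 2 and from 48.7 to 45.4 in animal 3, but from 20.7 to 30.6 in animal 5 and from 24.5 to 31.9 in animal 8. All 3 C57BL6/J animals with both libraries thus went up and the BTBR animals went both ways. Over lanes 3 and 4 the library medians were 20.5 to 44.9, and over lanes 1 and 2 they were 34.7 to 60.9. The kept libraries of lanes 3 and 4 also had more added PCR cycles (10 to 13) than those of lanes 1 and 2 (6 to 8), and the part of lane and cycles in these medians was not tested. Within lanes 1 and 2, lists with duplicates had medians of 34.7 to 60.6 and the others 45.4 to 60.9.

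**Figure D3:**
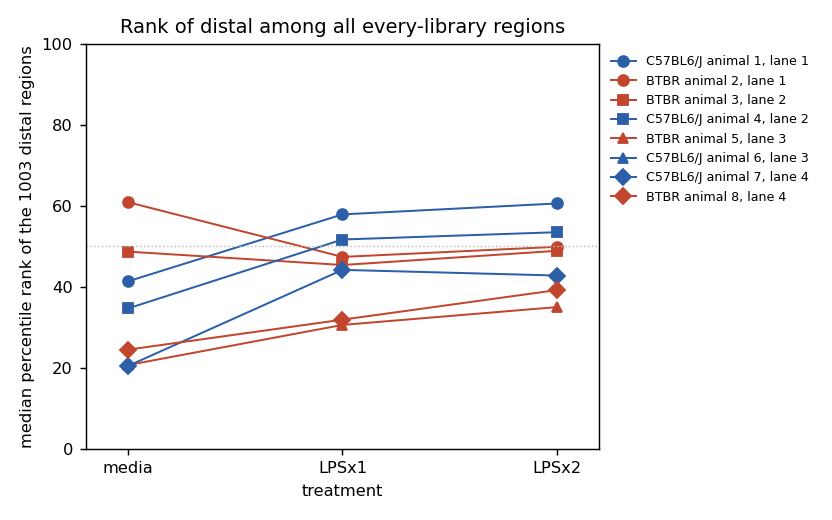
Median percentile rank of the 1003 distal regions among all 4675 regions found in every library (50 at the dotted line), by treatment, with a line per animal, coloured by strain and marked by lane. C57BL6/J lines rise from 20.5 to 41.4 in media to 44.2 to 57.9 with LPSx1, and BTBR animal 2 starts highest, at 60.9.

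Regions with an AP-1 motif were called higher with LPSx1 in 106 of 345 cases (30.7%) and lower in 9, with a median difference of 12.2 points, against 114 higher and 48 lower of the 658 without one (17.3% higher, median 4.95). On the scale of the 1003 alone the split was 76 higher and 33 lower with the motif, and 64 and 103 without it. Of the 149 with a PU.1 motif, 36 were higher (24.2%) and 10 lower, and of the 147 with C/EBP, 28 (19%) and 7, near the 21.9% higher over all 1003. On the narrower scale these were 25 and 19 for PU.1 and 21 and 19 for C/EBP. Of the 42 with the NF-kB motif, 12 were higher and 4 lower, but 5 and 11 on the narrower scale. Over all 4675 regions 10.3% were higher and 8.32% lower with LPSx1, or 9.39% and 7.98% on the narrower scale. With LPSx2 the AP-1 regions gave 89 higher and 8 lower, against 9.69% and 7.55% of all regions. On the narrower scale they gave 57 and 34, against 8.83% and 6.80%, with a median of 2.6 points (5.17 with LPSx1). These counts were chosen with the ranks known and carry no test.

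With LPSx1, few CpG-rich regions were called higher. Of these 100, 4 were higher and 11 lower, against 10.3% and 8.32% of all regions and 21.9% and 5.68% of the 1003. Their median difference was -3.45 points. On the narrower scale 2 were higher and 25 lower, against 9.39% and 7.98% of all regions, with a median of -13.5. None of the 24 with the SP/KLF motif was higher with LPSx1 on either scale, and 3 were lower, or 9 on the narrower scale. With LPSx2 the CpG-rich regions gave 8 higher and 9 lower, near the 9.69% and 7.55% of all regions. On the narrower scale they gave 4 and 17, against 8.83% and 6.80%. The median over libraries of their median rank was 47.2 in media, 36.6 with LPSx1 and 44.1 with LPSx2 in C57BL6/J, and 35.8, 35.7 and 42.4 in BTBR, a strain difference that was not tested.

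**Figure D4:**
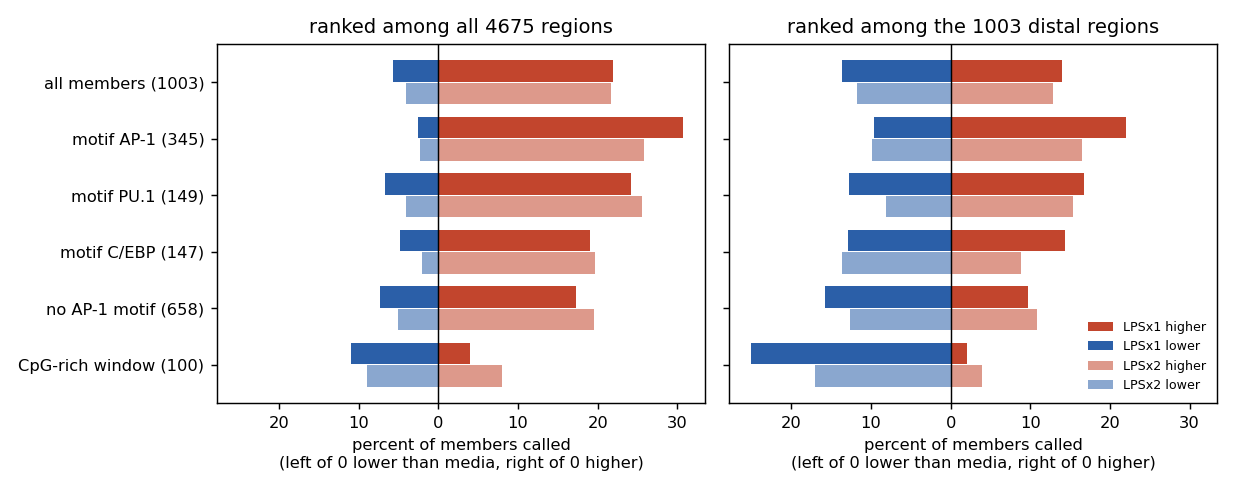
Percent of the regions of each kind called higher (right of 0) or lower (left of 0) than media with LPSx1 (dark) and LPSx2 (light), with ranks among all 4675 regions (left) and among the 1003 distal regions (right). Numbers of regions are in brackets; with LPSx1, 30.7% of the AP-1 regions were higher on the left scale and 22% on the right, and 25% of the CpG-rich ones were lower on the right.

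The regions that rose most had a rank near the bottom of the set in media and in its upper part after LPS (the plot of 8 regions). The region 463699 bp from the start of Kif2a, a kinesin gene, on chromosome 13 (107485697 to 107485987) ranked from 3.57 to 44.7 in media (median 12.6), from 62.1 to 91.8 with LPSx1 (85.5) and from 64.5 to 93.1 with LPSx2 (78.9). No treated library overlapped a media library. The difference was 65.9 points with LPSx1 (SE 7.02, limma adjusted p = 2.08e-07) and 63.1 with LPSx2 (SE 7.21, adjusted p = 5.76e-07), higher in 7 of 7 animals each time.

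The region 17090 bp from Crhbp, the gene of the corticotropin-releasing hormone binding protein, on chromosome 13 (95427537 to 95427909) had a similar range. It ranked from 1.8 to 34.2 in media (median 18.5), from 65.7 to 93.8 with LPSx1 (82.5) and from 68.9 to 89.9 with LPSx2 (79.3), again without overlap. Its window holds an AP-1 match. The differences were 64.5 (SE 6.95) and 63.1 (SE 7.14), with adjusted p-values of 2.08e-07 and 5.76e-07.

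Next to Maml2, a Notch coactivator, a region 1339 bp from the start on chromosome 9 (13296453 to 13296741) holds an NF-kB match. It ranked from 1.28 to 25.6 in media (median 12.0), from 65.9 to 88.1 with LPSx1 (70.7) and from 71.7 to 87.6 with LPSx2 (83.1). It gave the largest rise with LPSx2, of 68.2 points (SE 7.05, adjusted p = 1.57e-07), and rose by 57.7 with LPSx1 (SE 6.86, adjusted p = 1.09e-06). Treated and media libraries did not overlap.

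An intron of Pde4b, a phosphodiesterase that degrades cyclic AMP, on chromosome 4 (102574282 to 102574620) ranked from 2.31 to 57.5 in media (median 12.1), from 38.7 to 83.7 with LPSx1 (73.7) and from 50.8 to 93.7 with LPSx2 (87.6). The groups overlapped, through 2 BTBR media libraries over 50, but every animal went up. The differences were 51.6 points (SE 7.33, adjusted p = 1.31e-05) and 61.6 (SE 7.54, adjusted p = 1.22e-06).

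In the serum amyloid A cluster of acute-phase genes, a region in an intron of the pseudogene Saa-ps, 2515 bp from Saa4, on chromosome 7 (46734873 to 46735251) started lowest. It ranked from 0.246 to 10.9 in media (median 1.72), from 2.81 to 93.9 with LPSx1 (70.8) and from 15.4 to 92.7 with LPSx2 (89.9). The rise with LPSx1 was 59.5 points (SE 8.98, adjusted p = 2.76e-05), and was 83.3 in lanes 1 and 2 but 29.6 in lanes 3 and 4. The lowest LPSx1 values, 2.81 and 5.82, were those of BTBR animals 5 and 8. Without the lists that held duplicates it was not called with either schedule.

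The other regions named for a rise were an Epha7 intron (median rank 10.6 in media, 72.7 with LPSx1 and 82.4 with LPSx2), an Asb5 intron with a PU.1 match (9.07, 73.7 and 50.7) and the intergenic region 66269 bp from Usp38, a deubiquitinase gene, with an AP-1 match (5.72, 49.4 and 75.8). Their LPSx1 differences were 57.5, 55.9 and 43.7 points, and each rose in 7 of 7 animals with LPSx1.

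Regions that fell most had ranked in the upper part of the set in media. In an intron of Ank2, a membrane-skeleton adaptor, on chromosome 3 (127355275 to 127355617), ranks ran from 60.9 to 98.7 in media (median 92.5), from 7.56 to 61.0 with LPSx1 (19.6) and from 13.5 to 52.4 with LPSx2 (35.0). Media and LPSx2 libraries did not overlap, and those of LPSx1 touched the media range with 1 value. It fell by 59.6 points with LPSx1 (SE 8.25, adjusted p = 9.16e-06), by 79.5 in lanes 1 and 2 and by 27.8 in lanes 3 and 4. With LPSx2 it fell by 54.6 (SE 8.48, adjusted p = 4.95e-05). Its window, printed above, holds a PU.1 match.

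The region 69771 bp from Rybp, a Polycomb complex subunit gene, on chromosome 6 (100163201 to 100163547) ranked from 65.2 to 95.3 in media (median 82.8), from 6.22 to 50.6 with LPSx1 (12.4) and from 5.74 to 69.2 with LPSx2 (23.9). It fell by 58.8 points (SE 7.88, adjusted p = 6.10e-06) and by 49.8 (SE 8.10, adjusted p = 8.30e-05). Only the LPSx1 libraries were all below media, since 1 BTBR library with LPSx2 reached 69.2.

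The region 118805 bp from Klf4, a Kruppel-like transcription factor gene, on chromosome 4 (55651128 to 55651776) ranked from 16.8 to 84.4 in media (median 75), from 1.03 to 27.7 with LPSx1 (6.73) and from 4.39 to 20.1 with LPSx2 (11.3). It fell by 55.4 points with LPSx1 (SE 7.42, adjusted p = 6.10e-06), in 7 of 7 animals, and by 54.4 with LPSx2, in 6 of 7. The groups overlapped through 1 BTBR media library, at 16.8.

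Next to Iqgap1, a scaffold of the actin cytoskeleton, an intergenic region with AP-1 and NF-kB matches on chromosome 7 (80830404 to 80830788) ranked from 32.1 to 82.8 in media (median 48.7), from 0.332 to 24.0 with LPSx1 (7.25) and from 0.203 to 19.9 with LPSx2 (7.30). In an intron of Ctns, the lysosomal cystine transporter, on chromosome 11 (73193043 to 73193452), ranks were 42.2 to 70.6 in media (59.5), 5.18 to 36.6 with LPSx1 (19.7) and 2.41 to 23.9 with LPSx2 (12.3). In both regions every treated library lay below every media library. With LPSx2 they fell by 46.8 points (SE 6.28, adjusted p = 5.80e-06) and by 44.3 (SE 6.93, adjusted p = 5.53e-05).

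The remaining regions named for a fall were a Dapk1 intron (median rank 75 in media, 15.5 with LPSx1 and 51.6 with LPSx2), and intergenic regions near Chd2, a chromatin remodeller (72.1, 12.3 and 19.9), Col15a1, a collagen chain (77.9, 18.7 and 28.3), and Rplp1, a ribosomal protein (79.4, 30.9 and 30.4). With LPSx1 they fell by 56.5, 49.1, 48.4 and 45.5 points, each in 7 of 7 animals. The Chd2 fall with LPSx1 was not called without the lists that held duplicates.

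**Figure D5:**
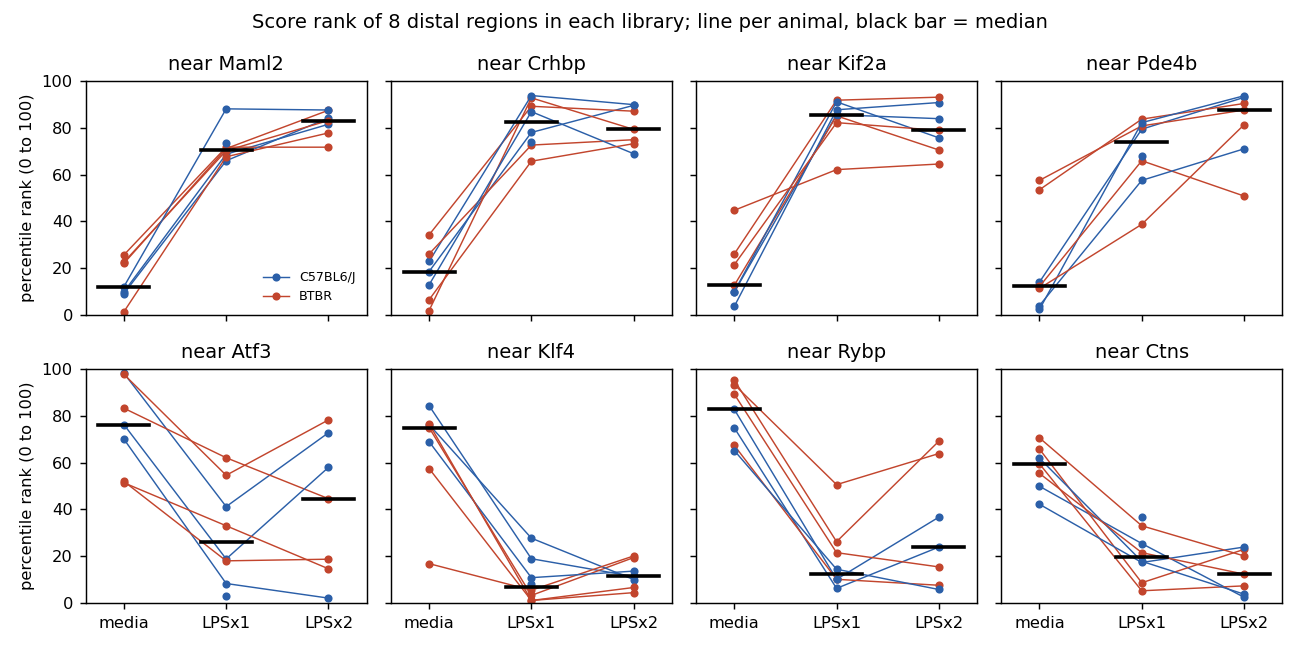
Percentile rank of 8 distal regions among the 4675 regions in every library, by treatment, with a line per animal coloured by strain and a black bar at the median of the 7 media, 8 LPSx1 and 7 LPSx2 libraries. The regions near Maml2, Crhbp and Kif2a rise from medians of 12.0 to 18.5 in media to 70.7 to 85.5 with LPSx1, and those near Klf4, Rybp and Ctns fall from 59.5 to 82.8 to 6.73 to 19.7.

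Only some of the regions assigned to genes of the LPS response passed the test. The region 12626 bp from Atf3, an AP-1 family gene that restrains inflammatory transcription, ranked from 51.4 to 98.3 in media (median 76.3), from 3.04 to 62.1 with LPSx1 (25.9) and from 2.05 to 78.3 with LPSx2 (44.6). It fell by 43.6 points with LPSx1 (SE 7.87, adjusted p = 2.90e-04) and by 34.7 with LPSx2 (SE 8.09, adjusted p = 0.00340), in 7 of 7 animals each. The regions near Junb (medians 88.1, 72.5 and 82.4 in media, LPSx1 and LPSx2) and Jun (72.2, 58.6 and 63.9) gave adjusted p-values of 0.0667 and 0.441 with LPSx1. A Batf intron (13.6, 40.2 and 35.3) had 0.141 with LPSx1 and 0.0447 with LPSx2, a call lost with the replicate block (adjusted p = 0.0522), without the lane term, without the lists with duplicates, on the narrower scale and without any of animals 1, 2, 4, 5, 6 and 8. The Atf3 call with LPSx2 was lost without the lane term.

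In Tnip3, an inhibitor of NF-kB signalling, a region in an exon with an AP-1 match rose by 29.7 points with LPSx1 (SE 7.75, adjusted p = 0.00821, 7 of 7 animals), from a median of 8.28 in media to 44.8. It was not called without the lists that held duplicates. The Bcl3 region (medians 74.8, 73.6 and 82.1) gave an adjusted p of 0.604. Regions in a Tnf intron (22.8, 31.2 and 18.7) and near Ccl2 (27.3, 28.0 and 35.9) gave 0.299 and 0.825. An Nr1h3 intron rose by 23.4 points with LPSx1 (SE 8.03, adjusted p = 0.0400), but by 43.7 in lanes 1 and 2 against -5.09 in lanes 3 and 4, and was not called on the narrower scale or without any of animals 1, 2, 3, 4 and 8. The region near Yy1 rose by 26.9 with LPSx1 and by 33.4 with LPSx2 (adjusted p = 0.0184 and 0.00513), but was not called with LPSx1 on the narrower scale or without any of animals 3, 4 and 8. Without the lists that held duplicates it was not called with either schedule. An intron of Gusb, a lysosomal enzyme gene, gave 0.561 with LPSx1.

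Among genes with several regions, App stood at 2 of 3 regions higher with LPSx1 and 3 of 3 with LPSx2, with differences of 19.5 to 53.4 and of 22.7 to 60.5 points. Alox5ap and Cd93 had 1 of 3 higher with each schedule. Chd7 had 1 higher and 1 lower with LPSx1. None of the regions assigned to Man1a, Pde4d, Fam49a, Plcb4 or Tmem189 was called with either schedule among all regions.

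No region of the 1003 differed between LPSx2 and LPSx1 by limma at an adjusted p under 0.05. An unadjusted p under 0.05 was reached by 38, a smaller share of the 1003 than the 0.05 that no difference would give. None of all 4675 regions (0%) was called. The median difference of the 1003 was 1.74 points.

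Between strains, 51 of the 1003 (5.08%) were called, 19 higher in BTBR and 32 lower, against 3.38% of all regions (1.16% and 2.22%). Ranked among the 1003 alone there were 56, 26 higher and 30 lower, against 3.44% (1.24% and 2.20%). With the animal's mean as the unit (the replicate block by averaging), 12 were called (1.09% of all regions). Without the lane term 2 of the 1003 were called, against 20 of all 4675 regions. Without the lists that held duplicates more were called, both among the 1003 and among all 4675. Animal 7 alone then stood for C57BL6/J in media and with LPSx2, so those counts are not given. Leaving out 1 animal gave 19 to 97, against 94 to 387 of all 4675 regions. Among the 1003 there were over 1.5 times fewer without any of animals 1, 2, 3, 4 and 5 and more without animal 7 or 8. C57BL6/J animal 6 enters with its LPSx1 library alone, and regions of DNA that differs between the strains could map differently, which was not tested.

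The largest strain difference was next to Chrm3, a muscarinic acetylcholine receptor gene, on chromosome 13 (9873448 to 9873786), with an AP-1 match. Animal means ran from 85.4 to 95.9 in C57BL6/J (median 91.9) and from 18.5 to 48.4 in BTBR (34.9). The groups did not overlap, and the difference, BTBR minus C57BL6/J, was -52.8 points (SE 6.32, adjusted p = 8.68e-07). A region near Nfia, in an intron of E130114P18Rik, ranked from 75.6 to 83.2 in C57BL6/J and from 20.9 to 49.3 in BTBR, a difference of -41.2 (SE 6.61, adjusted p = 1.18e-04). Both were called under all 24 other settings of the fit.

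A Dpp10 intron (medians of animal means 66.3 in C57BL6/J and 29.7 in BTBR) and the region near Nxph1 (99.8 and 72.8) were also lower in BTBR, with adjusted p-values of 0.00855 and 0.0244. The Nxph1 region is among the 6 that share a stretch with the mitochondrial genome. Its call was lost with the animal's mean as the unit, on the narrower scale, without the lists that held duplicates and without animal 3 or 4. The Dpp10 call was lost without those lists and without animal 1, 3 or 4. Higher in BTBR were the Adgrl2 region printed above (12.9 in C57BL6/J and 52.0 in BTBR, difference 38.6, SE 7.29, adjusted p = 9.24e-04) and an exon or untranslated part of Nek10, a kinase gene (10.2 and 44.3, adjusted p = 8.48e-04). The same held for a region near Dock1, an activator of Rac (5.37 and 29.2, adjusted p = 0.00117), and another near Adgrl2 (16.5 and 43.1, adjusted p = 0.0441). The latter lost its call with the animal's mean as the unit, on normal scores, without the lists that held duplicates and without any of animals 1 to 6. Without the lane term the calls at Adgrl2, Nek10, Dock1, Dpp10 and Nxph1 were lost.

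Response to LPS differed by strain at 2 of the 1003 regions for LPSx2, against 0.0428% of all regions, and at none for LPSx1 by limma. For LPSx1 213 had an unadjusted p under 0.05, with a median of -13.6 points over the 1003. Ranked among the 1003 alone these were 141 and -0.573. The number over all 4675 was not counted, so the 213 are not read as regions that differ by strain. The 2 regions called for LPSx2 both hold AP-1 matches. The intergenic Zfp462 region on chromosome 4 (54527723 to 54528058), printed above, ranked 57.4, 52.8 and 36.3 in the C57BL6/J media libraries and 92.8, 65.0, 84.7 and 87.1 in the BTBR ones. With LPSx2 it ranked 92.7, 92.0 and 95.4 in C57BL6/J and 79.3, 67.0, 83.9 and 88.8 in BTBR. It was thus lower in C57BL6/J than in BTBR in media, without overlap, and higher after LPSx2.

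The region 23398 bp from Tigd2, a transposase-derived gene, on chromosome 6 (59185332 to 59185614) ranked 18.5, 12.6 and 23.2 in C57BL6/J media and 81.1, 65.0, 73.5 and 82.2 in BTBR media. With LPSx2 it ranked 68.8, 81.0 and 89.9 in C57BL6/J and 38.5, 60.9, 72.5 and 88.2 in BTBR. The BTBR response minus the C57BL6/J response was -47.1 points at Zfp462 (SE 9.06) and -72.2 at Tigd2 (SE 13.3), with an adjusted p of 0.0228 for each. Neither was called without the lane term, on normal scores or without any of animals 1, 2, 4, 5 and 7. Zfp462 was not called on the narrower scale, where 1 region was called (0.0214% of all), or without animal 6. Tigd2 was not called without animal 3 or without the lists that held duplicates.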

How the data were processed

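Members, gene lists and the rule for named regions were chosen with earlier results of these data known. The authors deposited a list of peaks of fixed width per library with a peak score. Per the labels' design text, reads were aligned to mm10, nucleosome-free fragments were kept and HOMER called peaks in each replicate. Per the submitters' processing notes the tools also included Trimmomatic 0.38, SAMtools 1.8, Picard 2.18.4 and bedtools. How the score was computed is not given in the sources used here and depth is unknown, so scores were used as ranks.

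Peaks were collapsed, merged at 1 bp and annotated with GENCODE M21 in Python 3.11.15. For counts of genes and gene lists, a region went to the gene with the nearest protein-coding start within 100 kb. Named regions otherwise carry the gene with the nearest protein-coding start at any distance. Motifs were consensus strings, sought on both strands of windows of that width. Percentile ranks among the 4675 common regions were fitted with limma 3.58.1 (trend and robust) on 6 groups and lane, with Benjamini-Hochberg adjustment over all 4675. The strain fit had the animal as a random effect, whose consensus correlation was -0.0373, so that libraries of an animal count as nearly independent there. A biological replicate in the labels was taken as 1 animal, and p-values measure the spread between libraries within groups and lanes. Deviations from group means correlated with a median r of 0.348 between libraries of an animal (-0.0461 to 0.700, 21 pairs) and of -0.101 between animals. The fit was tested on simulated data.

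The regions named were the 6 with the highest mean rank and the 6 largest rises and falls per LPS schedule among called regions that moved 1 way in every animal. To these were added the 4 largest called strain differences each way with animal means that did not overlap, the called interactions, regions of listed genes and genes with most regions. The alternatives varied the lists, windows, scores, lane, replicate block and animals. Ranks among the distal regions alone, the mitochondrial match and the motif subsets were added after seeing the data. Intervals are exact (Clopper-Pearson, 95%) and cover counting error only. The count for the lysosomal gene list is not reported here.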

Additional observations from a re-analysis of the deposited data

Results flagged for a closer look

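The response to LPSx2 differed between strains at the Zfp462 region (-47.1 points, BTBR minus C57BL6/J) and the Tigd2 region (-72.2 points), by the test of the interaction. Zfp462 was not called under 17 of the 24 other settings of the fit, and Tigd2 under 16.

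The lists of C57BL6/J animal 6 that were left out also touched the distal regions. Of the 299 peaks of its media list, 59 lay on one of the 1003 (19.7%, exact interval 15.4 to 24.7), and 79 (26.4%) lay on promoter regions found in every library. Of the 1877 peaks of its LPSx2 list, 236 lay on the 1003 (12.6%, 11.1 to 14.2), and 1164 (62%) lay on those promoter regions. These shares are a description.

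In 12 of the 140 groups of 4 libraries tested, 1 library stood far from the others, which chance gives in about 1 in 20. BTBR animal 2 did so 5 times: near Abcb11 with LPSx2 (98.1, others 99.7 to 99.8), near Tbx20 with LPSx1 (95, others 99.7 to 99.8) and LPSx2 (71.7, others 96.9 to 99.8), at Epha7 with LPSx1 (44.7, others 71.7 to 76.9) and at Asb5 in media (66.7, others 2.19 to 9.63). BTBR animal 8 ranked 79.3 near Zfp869 with LPSx1 (others 95.3 to 98.5) and 1.28 near Maml2 in media (others 22 to 25.6). C57BL6/J animal 7 ranked 53.4 near Chd2 (others 4.46 to 5.82) and 43 at Nek10 (others 7.56 to 11.7), both with LPSx1. C57BL6/J animal 1 ranked 93.1 near Usp38 with LPSx1 (others 44.4 to 52.4). The gaps near Gm5426 (BTBR animal 5 in media, 99.9) and Abcb11 (C57BL6/J animal 1 with LPSx1, 99.8) are below the printed precision.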

How the results depend on the processing

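The number of distal regions in every library was 266 with the stronger 50% of each list, 408 with lists limited to the shortest, 30 with no list left out, and 1006 to 1346 without 1 animal. Of 43 called results at named regions, 24 were called under all 24 settings of the fit. Called regions numbered 136 (LPSx1), 151 (LPSx2), 2 (strain) and 0 (interaction with LPSx2) without the lane term, and 373, 376, 20 and 0 over all 4675 regions. Without lists with duplicates they were 137, 90, 148 and 11 (interaction with LPSx1), and 558, 352, 681 and 66 over all regions. In ranks within class without those lists they were 168, 109, 216 and 16, with 7 for the interaction with LPSx2. Over all regions these were 649, 419, 826, 88 and 45. With the replicate block LPSx1 gave 243, LPSx2 252 and, by averaging, strain 12, or 24 in ranks within class. Over all regions these were 684, 785, 51 and 66. The interaction with LPSx2 gave 0 on normal scores and 1 in ranks within class, and that with LPSx1 gave 2 without C57BL6/J animal 1's media library. Leaving out 1 animal gave 180 to 307 (LPSx1), 174 to 319 (LPSx2), 0 to 0 (LPSx2 against LPSx1), 19 to 97 (strain), 0 to 1 and 0 to 5 (interactions with LPSx1 and LPSx2). Over all 4675 regions LPSx1 gave 443 to 1073, LPSx2 480 to 1028 and strain 94 to 387. In ranks within class the 1003 gave 190 to 310, 165 to 280, 0 to 0, 30 to 128 (111 without animal 8), 0 to 1 and 0 to 2. Over all regions LPSx1 then gave 428 to 978, LPSx2 434 to 863 and strain 98 to 406. The Nr1h3 difference with LPSx1 was -5.09 in lanes 3 and 4 alone and -11.8 in ranks within class without lists with duplicates. The causes were not tested.

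In windows of the central part alone and in whole regions AP-1 was in 23.8% and 42.3%, PU.1 in 9.57% and 17.5%, C/EBP in 7.88% and 22.5%, and RUNX in 3.29% and 6.78%. CTCF was in 0.299% of the central windows and, with a looser core, in 5.28% of full windows, against 5.89% in distal regions of 11 to 21 libraries. Introns of protein-coding genes held 44.3%, and the median distance to protein-coding starts was 18999 bp. Ranks among the distal regions with p-values adjusted over them alone were not run. Depth is unknown, so its limit on these ranks is too.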
